A study of Mus musculus with 157 samples.

Results

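The regions described here are 517 promoter windows in which the acetylation of histone H3 at lysine 27 (H3K27ac) was lower in mouse macrophages given monosodium urate crystals (MSUc) than in macrophages given PBS. They were chosen by their measured H3K27ac, as the regions of the authors' list of reduced H3K27ac whose annotation places them at a transcription start site. They make up 28.1% of the 1838 regions of that list, belong to 438 genes, and stand beside 84 promoter windows among the 2081 regions of the opposite list, which is 4.04% of it. Both lists together hold 3919 regions.

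H3K27ac is deposited by acetyltransferases such as p300 and CBP on nucleosomes beside active promoters and enhancers, and it is removed by histone deacetylases. At promoters it usually lies with the trimethylation of lysine 4 (H3K4me3), which marks transcription start sites in use. MSUc are the crystals that form in gout. Macrophages take them up, and the crystals can damage the lysosome that holds them.

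All cells were macrophages grown from bone marrow with the growth factor M-CSF. In the experiments on chromatin, and in the time course and the comparison of particles, they came from C57BL/6 mice. MSUc were given at 250 µg/mL and control cells received PBS. For H3K27ac there were 2 libraries of MSUc cells (mice 1 and 3) and 3 of PBS cells (mice 1, 2 and 3), all at 5 h, and for H3K4me3 there were 2 of MSUc cells and 2 of PBS cells (mice 1 and 2). RNA was read in 115 libraries of 8 experiments with 2 or 3 libraries per group. One followed MSUc and PBS at 10 min, 30 min, 1 h, 2 h and 5 h. A second gave MSUc, calcium pyrophosphate dihydrate crystals (CPPD), silica or aluminum hydroxide (alum), each at 250 µg/mL, or PBS. The other 6 gave MSUc or PBS to Tfe3KO and Tfe3WT cells (which also received CPPD or silica), to TfebTg and TfebWT cells (Tfeb-Tg mice), to B40KO, B41KO and WT cells (Bhlhe40-/- and Bhlhe41-/- mice), to Ampka1KO and Ampka1WT cells (Ampkα1-/- and congenic WT mice, with bone marrow taken at 7 to 8 weeks), to cells with the DOT1L inhibitor SGC0946 (1 µM from day 0) or its vehicle, and to cells with metformin or its vehicle. M-CSF was 5 ng/mL for the Ampka1 cells and 16 ng/mL for cells of C57BL/6, Tfeb-Tg and Bhlhe-deficient mice, and the labels give none for the Tfe3 experiment. The labels do not give the exposure times of these last 7 experiments, the promoter that drives the Tfeb transgene, or whether RNA replicates came from separate animals, so that p-values measure the spread between libraries, which may be technical.

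H3K27ac libraries held 11.6 and 11.0 M tags (MSUc) and 23.7, 12.1 and 11.4 M tags (PBS), and H3K4me3 libraries held 7.66 and 9.29 M (MSUc) and 10.4 and 8.95 M (PBS). RNA levels are in TPM, a unit that corrects read counts for gene length and depth, and each RNA library had between 10749 and 12354 genes at 1 TPM or more. The 8 macrophage markers listed summed to between 13036 and 14312 TPM in MSUc libraries at 5 h and between 19459 and 26049 TPM in PBS libraries at 5 h. Marker lists of other cells summed to far less. They gave 12.20 to 12.22 TPM in MSUc and 2.70 to 4.28 TPM in PBS libraries for dendritic cells, 16.2 to 36.4 in MSUc and 17.4 to 30.6 in PBS for neutrophils, 8.15 to 12.1 in MSUc and 0.861 to 0.912 in PBS for mast cells and basophils, 6.60 to 17.8 in MSUc and 3.45 to 6.38 in PBS for fibroblasts, and 3.37 to 6.29 in MSUc and 8.42 to 9.53 in PBS for lymphocytes. Of these lists, 1 of 12, 2 of 12, 4 of 10, 1 of 10 and 3 of 10 markers were at 0 in every 5 h library. The part of other cells in the results was not tested. In bulk RNA, fewer cells of a type and less RNA per cell cannot be told apart.

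Sequences are shown for 6 of the promoters with the largest listed loss, because the letters of their start sites are what a reader needs to compare them. They run 5′ to 3′ in the direction of the gene, from 250 bases before the start site to 50 bases after it, as given by RefSeq for GRCm38.p6. Capitals mark CCAAT, the core of sites for NF-Y, GGGCGG, the core of sites for SP and KLF factors, and TTTCCCGC, a form of E2F site, on either strand (ATTGG and CCGCCC are the other strand of the first pair). They lie at chr7:97842689-97842988 on the plus strand for Pak1, chr1:139454523-139454822 on the plus strand for Aspm, chr12:108334066-108334365 on the plus strand for Cyp46a1, chr10:41490189-41490488 on the plus strand for Ppil6, chr8:85083019-85083318 on the plus strand for Man2b1, and chr2:164857659-164857958 on the minus strand for Pltp.
Pak1: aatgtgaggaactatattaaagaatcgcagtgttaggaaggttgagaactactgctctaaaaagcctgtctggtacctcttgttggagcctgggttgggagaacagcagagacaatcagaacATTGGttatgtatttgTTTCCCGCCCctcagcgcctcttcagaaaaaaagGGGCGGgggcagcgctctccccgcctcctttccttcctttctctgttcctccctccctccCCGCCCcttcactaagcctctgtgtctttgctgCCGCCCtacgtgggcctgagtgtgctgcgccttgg
Aspm: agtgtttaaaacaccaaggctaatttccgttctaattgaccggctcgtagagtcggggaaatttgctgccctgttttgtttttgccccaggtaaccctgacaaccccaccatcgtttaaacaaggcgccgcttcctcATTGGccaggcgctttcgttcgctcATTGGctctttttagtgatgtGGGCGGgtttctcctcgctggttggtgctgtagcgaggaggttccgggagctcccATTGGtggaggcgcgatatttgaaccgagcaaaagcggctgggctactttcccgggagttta
Cyp46a1: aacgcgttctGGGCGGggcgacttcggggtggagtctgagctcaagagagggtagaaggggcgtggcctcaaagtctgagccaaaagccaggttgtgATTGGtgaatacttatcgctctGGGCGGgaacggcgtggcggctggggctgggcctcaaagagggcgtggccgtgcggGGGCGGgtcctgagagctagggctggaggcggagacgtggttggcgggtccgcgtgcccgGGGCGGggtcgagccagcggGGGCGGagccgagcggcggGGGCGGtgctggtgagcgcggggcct
Ppil6: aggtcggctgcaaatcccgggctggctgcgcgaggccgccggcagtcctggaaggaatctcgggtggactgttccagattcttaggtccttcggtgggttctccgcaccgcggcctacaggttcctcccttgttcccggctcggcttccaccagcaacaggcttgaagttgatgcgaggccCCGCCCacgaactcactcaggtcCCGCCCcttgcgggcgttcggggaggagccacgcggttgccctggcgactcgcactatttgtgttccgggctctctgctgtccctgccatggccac
Man2b1: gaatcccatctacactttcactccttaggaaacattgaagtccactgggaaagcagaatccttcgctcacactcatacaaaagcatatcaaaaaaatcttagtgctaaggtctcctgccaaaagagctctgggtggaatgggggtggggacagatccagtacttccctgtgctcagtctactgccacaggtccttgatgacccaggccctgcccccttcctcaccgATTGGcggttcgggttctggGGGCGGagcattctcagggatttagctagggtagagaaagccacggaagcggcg
Pltp: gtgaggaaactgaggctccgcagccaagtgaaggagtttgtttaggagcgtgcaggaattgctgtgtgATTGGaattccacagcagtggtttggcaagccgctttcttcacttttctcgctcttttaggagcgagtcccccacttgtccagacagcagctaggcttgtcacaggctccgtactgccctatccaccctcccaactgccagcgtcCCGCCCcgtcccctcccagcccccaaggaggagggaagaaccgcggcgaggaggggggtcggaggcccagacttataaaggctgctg
Aspm held 3 CCAAT matches and 1 GGGCGG match, Cyp46a1 held 1 and 6, and Pak1 held 1 and 4 with 1 E2F match that overlaps a GGGCGG match. Man2b1 and Pltp each held 1 CCAAT and 1 GGGCGG match, and Ppil6 held 2 GGGCGG matches. None of the 6 held CACGTG, the site of TFEB and TFE3, or the AP-1 letters TGANTCA. Both are uncommon in such stretches, standing in 10.3% and 5.28% of promoters of genes tested at 5 h.

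Each window spans 2000 bp, and the windows sat close to start sites. The distance of the centre to the start site ran from -998 to 439 bp with a median of -69 bp, and 309 windows (59.8%) lay within 100 bp. Protein-coding genes held 495 windows, non-coding RNA genes 21 and a pseudogene 1. A gene could hold more than 1 window, as 69 genes held 2 and 5 genes held 3, and 172 windows overlapped another member window and so share tags. Chromosome X held 20 windows, and chromosome 7 held the most (48). The windows were drawn around a joint set of reproducible peaks of PBS, MSUc and another treatment not used here, per the file headers, which do not name the assay of those peaks. The peak sets of both MSUc and PBS cells held 411 windows (79.5%), that of PBS cells but not of MSUc cells held 80 (15.5%), that of MSUc cells but not of PBS cells held 14 (2.71%), and neither held 12 (2.32%). Of the 1321 other regions of reduced H3K27ac, 653 (49.4%) were in both sets and 534 (40.4%) were in the PBS set and not in the MSUc set.

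The H3K27ac values that chose the windows are given as a description. The median window held 60.2 and 64.8 normalised tags in MSUc mice 1 and 3, against 144, 145 and 149 in PBS mice 1, 2 and 3. Windows ranged from 1.40 to 413 and from 4.47 to 406 normalised tags in the MSUc libraries, and from 14.04 to 923, from 22.4 to 1091 and from 26.1 to 938 in the PBS libraries. Both MSUc libraries were below all 3 PBS libraries in each of the 517 windows, which follows largely from how they were chosen. In the authors' deposited table the log2 change of MSUc over PBS ran from -2.70 to -1.0005 with a median of -1.24. In that table, a change of -1.5 or lower stood at 122 windows and one of -2 or lower at 22, while 74 lay within 0.05 of the edge at -1. The median was -1.27 within mouse 1 and -1.20 within mouse 3, as log2 of the 2 libraries of the same mouse with 1 tag added.

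**Figure D1:**
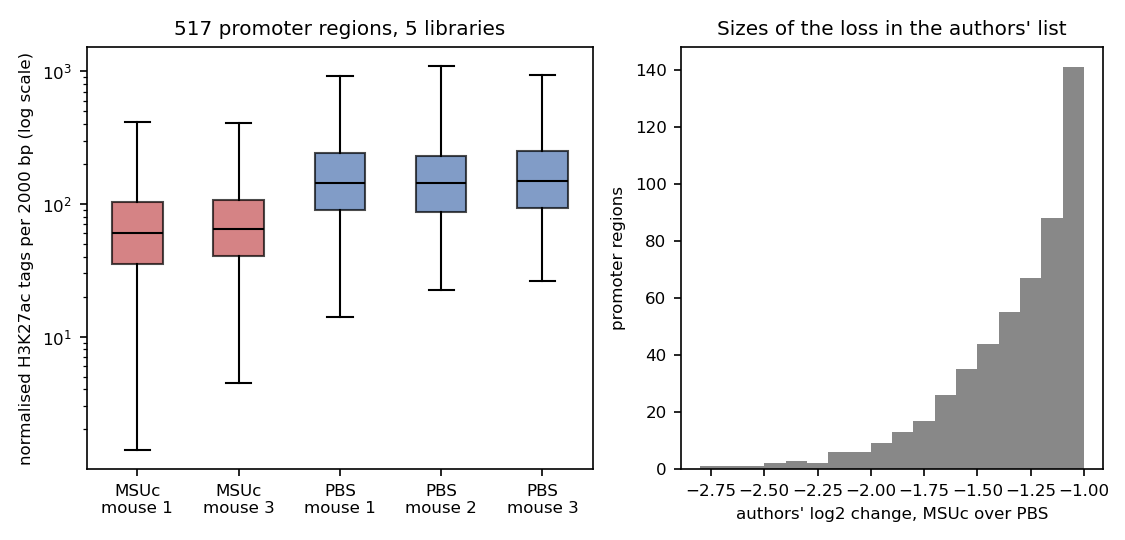
Left, normalised H3K27ac tags per 2000 bp (log axis) of the 517 promoter windows in the 2 MSUc and 3 PBS libraries, with boxes from the lower to the upper quartile, the median as a line and whiskers to the lowest and highest window; right, the number of windows by the authors' log2 change of MSUc over PBS. MSUc medians are 60.2 and 64.8 tags, PBS medians lie between 144 and 149, and the bars are highest next to the listing threshold of -1.

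The windows with the largest listed loss were a mixed group of genes. Efhb, which encodes an EF-hand protein of cilia and flagella, held 2.80 and 12.3 normalised tags in MSUc cells, against 44.1, 54.0 and 50.4 in PBS cells (chr17:53462346-53464346, mm10). Pak1, a kinase that acts downstream of Rac and Cdc42, held 9.80 and 4.47 in MSUc cells, against 46.1, 33.6 and 43.2 in PBS cells (chr7:97841941-97843941). Aspm, a protein of the mitotic spindle pole, held 11.2 and 16.8 in MSUc cells, against 96.9, 82.5 and 67.5 in PBS cells (chr1:139453712-139455712). In all 3 the MSUc libraries lay far below the PBS libraries. The authors' deposited table gives them log2 changes of -2.70, -2.61 and -2.59, with adjusted p = 5.66e-04, 1.65e-03 and 6.42e-06.

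Pde3b, a phosphodiesterase that breaks down cyclic AMP, held 9.80 and 7.81 normalised tags in MSUc cells, against 14.04, 89.6 and 37.8 in PBS cells (chr7:114414227-114416227). PBS mouse 1 was close to the MSUc libraries here. Cyp46a1, cholesterol 24-hydroxylase, held 1.40 and 8.93 in MSUc cells, against 30.1, 23.4 and 32.4 in PBS cells (chr12:108333156-108335156), and a second window that overlaps it was also among the 12 largest. Man2b1, lysosomal alpha-mannosidase, held 43.4 and 41.3 in MSUc cells, against 176, 175 and 250.3 in PBS cells (chr8:85082234-85084234). Pltp, a phospholipid transfer protein of lipoproteins, held 49.0 and 54.7 in MSUc cells, against 225, 269.9 and 224 in PBS cells (chr2:164856751-164858751). This last pair had the highest tag numbers among the 12, and the authors' deposited table gives Man2b1 -2.30 (adjusted p = 2.35e-09) and Pltp -2.25 (adjusted p = 2.31e-11). Ppil6, 4930563E22Rik, Cd46 and Dcp1b, the last a decapping cofactor of mRNA, completed the 12, with -2.33, -2.22, -2.20 and -2.17 in the authors' deposited table. At the other end, the windows just inside the threshold belonged to Gnl1, Fyb and Abcd2. Abcd2 held 133 and 48.0 normalised tags in MSUc cells, against 201, 142 and 173 in PBS cells. Windows just outside the threshold are not listed and were not analysed here.

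**Figure D2:**
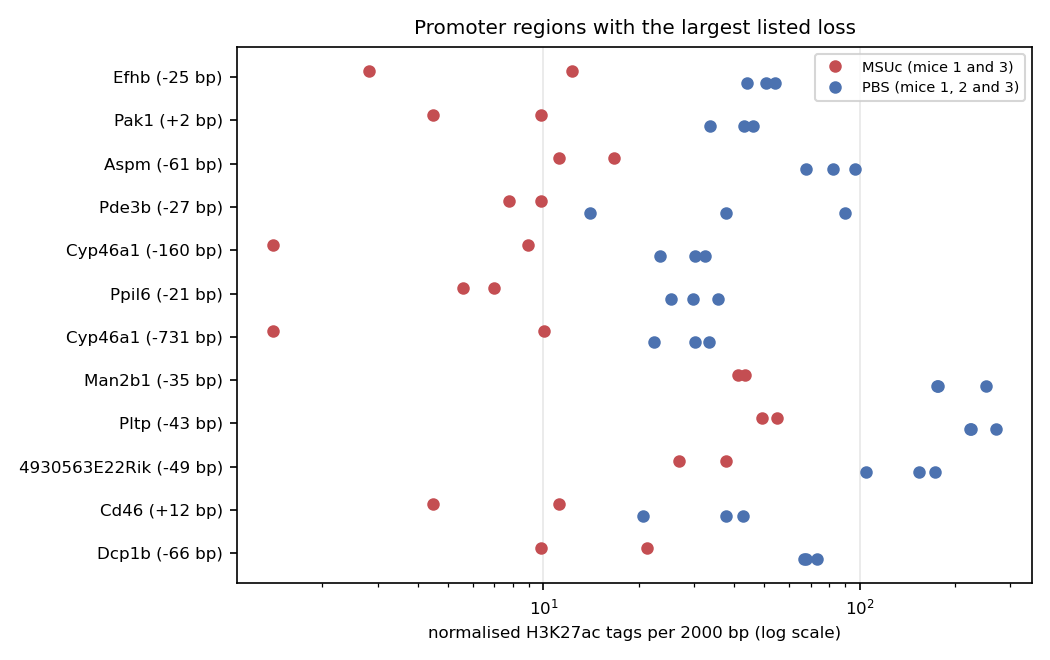
Normalised H3K27ac tags per 2000 bp (log axis) in each library for the 12 promoter windows with the largest listed loss, MSUc in red above PBS in blue, with the distance of the window's centre from the start site in brackets. Within each window the MSUc points lie left of the PBS points, the closest being Pde3b, where PBS mouse 1 held 14.04 tags and the MSUc libraries 9.80 and 7.81.

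H3K4me3 was read in other libraries and was not used to choose the windows. Of the 517 windows, 151 (29.2%, 119 genes) overlapped by at least 1 bp a region of the authors' list of reduced H3K4me3, and 1 (0.193%) overlapped the list of gained H3K4me3. As a share of the other lists, 212 of 868 reduced H3K4me3 regions (24.4%) and 1 of 1168 gained ones (0.0856%) overlapped the windows. The other regions of reduced H3K27ac overlapped the reduced H3K4me3 list at a similar share, 364 of 1321 (27.6%), and the gained list at 0. Of the 84 promoter windows that gained H3K27ac, 0 overlapped the reduced H3K4me3 list and 43 (51.2%) the gained one. Only listed H3K4me3 regions were at hand, so that windows outside both lists have no H3K4me3 value here.

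Complement C1q genes were among the windows with the largest losses of H3K4me3. C1qa, C1qb and C1qc encode the 3 chains of C1q, which starts the classical complement pathway and is made in quantity by macrophages, and the 3 genes lie side by side at chr4:136885255-136899860. At C1qc, H3K4me3 was at 19.5 and 27.5 normalised tags in MSUc cells, against 126 and 138 in PBS cells, and H3K27ac was at 115 and 64.8 in MSUc cells, against 363, 179 and 392 in PBS cells. At C1qb, H3K4me3 was at 60.5 and 49.9 in MSUc cells, against 227 and 234 in PBS cells. The MSUc libraries were below the PBS libraries in both marks. The authors' deposited table gives H3K4me3 log2 changes of -2.52 for C1qc (adjusted p = 1.98e-09) and -2.08 for C1qb (adjusted p = 7.75e-12).

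Apoe, the apolipoprotein by which macrophages export cholesterol, held 15.8 and 14.3 H3K4me3 tags in MSUc cells, against 73.8 and 67.4 in PBS cells. H3K27ac in the nearer of its 2 windows was at 43.4 and 26.8 tags in MSUc cells, against 133, 113 and 106 in PBS cells. Rassf2, a tumour suppressor of the RASSF family, held 40.02 and 46.8 H3K4me3 tags in MSUc cells, against 198 and 215 in PBS cells. Mxd4, a MAX partner that opposes MYC, held 21.4 and 10.2 in MSUc cells, against 91.8 and 50.8 in PBS cells. For these 3 genes the authors' deposited table gives H3K4me3 changes of -2.25, -2.27 and -2.18 on the log2 scale. Rnd2, named because it was the exception, held 121 and 87.5 H3K4me3 tags in MSUc cells, against 58.1 and 33.2 in PBS cells, a log2 change of 1.17 in the authors' deposited table (adjusted p = 2.05e-02). Over the 151 windows the H3K4me3 changes in the authors' deposited table ran from -2.52 to -1.0013, with the same median (-1.28) as the whole list of 868.

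RNA, which was not used to choose the windows, fell at most of these genes as the hours passed. Of the 438 genes, 408 had enough RNA to be tested in the time course, where a call is a limma adjusted p under 0.05 over all 12350 genes tested. At 10 min, 0 member genes fell and 0 rose (2 were lower and 4 higher at an unadjusted p under 0.05), against 0.00810% of all genes that fell and 0.0486% that rose. At 30 min, 0 fell (3 at an unadjusted p under 0.05), against 0% of all genes, and 2 rose (0.490%), against 0.680%. At 1 h, 17 fell (4.17%), against 0.947% of all genes, and 4 rose (0.980%), against 2.33%. Leaving out any of the 4 libraries of 1 h brought the 17 to between 4 and 6, and without PBS replicate 2 the 4 were 2. Without any 1 library of 30 min the 2 were 1. At 2 h, 205 fell (50.2%), against 22.3%, and 4 rose (0.980%), against 11.2%. At 5 h, 285 fell (69.9%), against 32.9%, and 6 rose (1.47%), against 16.4%. From 1 h on, the share of member genes that fell was above that of all genes and the share that rose was below it.

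The 17 genes that fell at 1 h all fell at 2 h and at 5 h too, and 200 of the 205 that fell at 2 h also fell at 5 h. A further 85 fell at 5 h and not at 2 h. The median log2 change of the member genes was -0.10 at 1 h, -0.47 at 2 h and -0.82 at 5 h, against -0.05, -0.15 and -0.23 for all genes tested. At 5 h the member genes ran from -3.45 to 1.05, with quartiles at -1.25 and -0.47, and 369 of 408 were below 0. Of the 285 called, 137 fell by more than 1 log2 unit. Rescaling the libraries by a median of ratios moved the median of all genes by 0.15 at 2 h and 0.23 at 5 h. Relative to that, 219 member genes fell and 19 rose at 5 h, with a median of -0.59, against -0.01 for all genes, of which 2519 of 12346 fell and 3101 rose. Of the other genes, 117 were tested and passed in neither direction, and 30 were not tested because their RNA was too low. Histone genes made up 13 of those 30, and libraries of poly-A RNA measure most histone transcripts poorly, since these lack a poly-A tail.

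**Figure D3:**
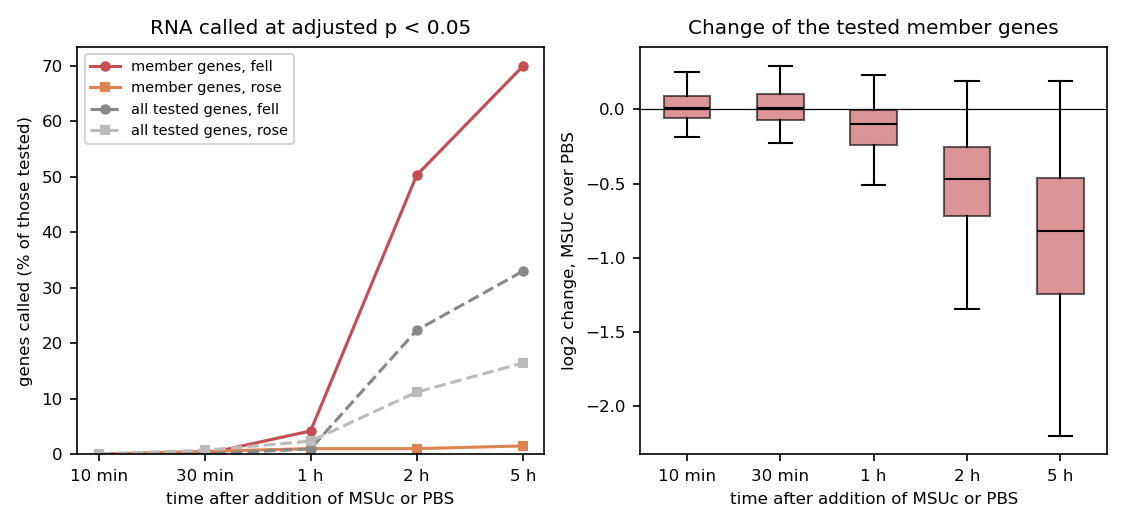
Left, the percentage of tested genes that fell or rose with MSUc at each time (limma adjusted p under 0.05). Shares are given for the 408 member genes and for all 12350 genes. Right, boxes (quartiles and median) of the log2 change of the member genes, MSUc over PBS. Whiskers stop short of the most extreme genes, and points beyond the whiskers are not drawn. The falling share of member genes reaches 69.9% at 5 h, against 32.9% of all genes, and the median change reaches -0.82.

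Bmf fell early. It encodes a BH3-only protein that promotes apoptosis. At 1 h it had 6.60 and 7.90 TPM in MSUc libraries, against 23.3 and 19.6 TPM in PBS libraries (log2 change -1.45 ± 0.12 SE, limma adjusted p = 1.28e-05). At 2 h it had 1.39 and 1.59 TPM in MSUc libraries, against 25.3 and 21.5 TPM in PBS libraries. Txnip, the thioredoxin-binding protein that limits glucose uptake, had 49.6 and 70.8 TPM in MSUc libraries at 1 h, against 159 and 111 TPM in PBS libraries (-1.15 ± 0.22, limma adjusted p = 8.78e-03). The MSUc and PBS libraries of both genes did not overlap at 1 h. Sesn1 was first called at 2 h. At 1 h it had 69.7 and 48.2 TPM in MSUc libraries, against 73.8 and 119 TPM in PBS libraries (limma adjusted p = 0.483), also without overlap. At 2 h it had 16.7 and 12.5 TPM in MSUc libraries, against 81.7 and 115 TPM in PBS libraries (-2.66 ± 0.36, limma adjusted p = 1.35e-04). Its timing was not tested against that of Bmf or Txnip.

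A few genes rose first. Zfp36l1, an RNA-binding protein that drives decay of AU-rich mRNAs, had 158 and 142 TPM in MSUc libraries at 30 min, against 72.8 and 76.5 TPM in PBS libraries (1.00 ± 0.18, limma adjusted p = 1.93e-02). At 1 h it had 176 and 159 TPM in MSUc libraries, against 87.8 and 81.2 TPM in PBS libraries (0.98 ± 0.18, limma adjusted p = 7.31e-03). By 5 h it had 16.9 and 27.7 TPM in MSUc libraries, against 79.2 and 90.1 TPM in PBS libraries (-1.92 ± 0.18, limma adjusted p = 2.74e-06). The MSUc libraries were thus above the PBS libraries at 1 h and below them at 5 h. The difference between the MSUc effects at 5 h and 1 h was -2.89 ± 0.25 (limma adjusted p = 1.31e-05), and Zfp36l1 was 1 of 3 genes among all tested (0.0243%) that rose at 1 h and fell at 5 h with that difference called. The nearer of its 2 windows held 40.6 and 104 H3K27ac tags in MSUc cells at 5 h, against 229, 201 and 257 in PBS cells. Btg2 and Tob1, both antiproliferative BTG/TOB proteins that bind deadenylases, are named because counts were small and after their values were seen. Btg2 had 82.6 and 129 TPM in MSUc libraries at 30 min, against 12.9 and 14.2 TPM in PBS libraries (2.84 ± 0.24, limma adjusted p = 2.57e-05), and 14.2 and 20.7 TPM in MSUc libraries at 5 h, against 16.8 and 16.7 TPM in PBS libraries. Tob1 had 34.5 and 39.3 TPM in MSUc libraries at 1 h, against 17.5 and 14.04 TPM in PBS libraries. The fourth gene that rose at 1 h was Lima1, an actin cross-linker, and at 2 h the 4 that rose were Fam110a, Lima1, Nr1d2 and Tob1.

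The largest falls of RNA at 5 h spanned growth control, transport and signalling. Sesn1, a stress protein that restrains mTORC1, had 9.12 and 6.77 TPM in MSUc libraries, against 79.1 and 117 TPM in PBS libraries (-3.45 ± 0.36, limma adjusted p = 6.95e-06). Bmf had 1.83 and 1.68 TPM in MSUc libraries, against 23.0 and 21.6 TPM in PBS libraries (-3.08 ± 0.12, limma adjusted p = 4.39e-09). Mxd4 had 8.63 and 8.67 TPM in MSUc libraries, against 71.0 and 76.8 TPM in PBS libraries (-2.96 ± 0.13, limma adjusted p = 7.47e-09). In each of these the lowest PBS library was far above the highest MSUc library. Fgd2, an exchange factor for Cdc42, had 6.97 and 8.40 TPM in MSUc libraries, against 65.3 and 64.7 TPM in PBS libraries (-2.93 ± 0.09, limma adjusted p = 2.38e-09). Abcd2, a peroxisomal transporter of very long chain fatty acids, had 0.41 and 0.55 TPM in MSUc libraries, against 11.0 and 10.5 TPM in PBS libraries (-2.99 ± 0.12). It was the window nearest the H3K27ac threshold and yet among the largest falls of RNA. Gpr34, a receptor for lysophosphatidylserine, had 0.85 and 0.50 TPM in MSUc libraries, against 6.66 and 18.4 TPM in PBS libraries, the widest spread among these 10 (-2.87 ± 0.72, limma adjusted p = 5.41e-03). Pald1, Zfp395, Slc46a3 and Arrdc3 fell by 3.23, 2.98, 2.84 and 2.72 on the log2 scale.

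A group of 6 member genes rose at 5 h although their windows were listed as losing H3K27ac. Sgk1, a kinase of the AKT family that answers to serum and glucocorticoids, had 319 and 331 TPM in MSUc libraries, against 175 and 140 TPM in PBS libraries (1.05 ± 0.21, limma adjusted p = 1.20e-03). Sgk1 held 3 member windows, all of them also in the reduced H3K4me3 list. The one nearest its start site held 245 and 250.1 H3K27ac tags in MSUc cells, against 622, 799 and 464 in PBS cells. Nr1d2, which encodes the clock repressor REV-ERB beta, had 34.9 and 29.9 TPM in MSUc libraries, against 15.5 and 15.5 TPM in PBS libraries (1.01 ± 0.11, limma adjusted p = 1.06e-05). Its window held 112 and 67.0 tags in MSUc cells, against 157, 227 and 152 in PBS cells. RNA and H3K27ac thus moved in opposite directions at both genes. Bzw2, Nckap5l, Lima1 and Ccnc, the last encoding cyclin C of the Mediator kinase module, rose by 0.79, 0.78, 0.46 and 0.32 on the log2 scale. Limma adjusted p was 2.54e-03, 2.55e-04 and 1.14e-02 for the first 3. The Bzw2 window also holds the start of a second gene, Ankmy2, which fell. Ankmy2 had means of 5.50 TPM in MSUc libraries and 12.4 TPM in PBS libraries (-1.04 ± 0.12, limma adjusted p = 1.21e-05).

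**Figure D4:**
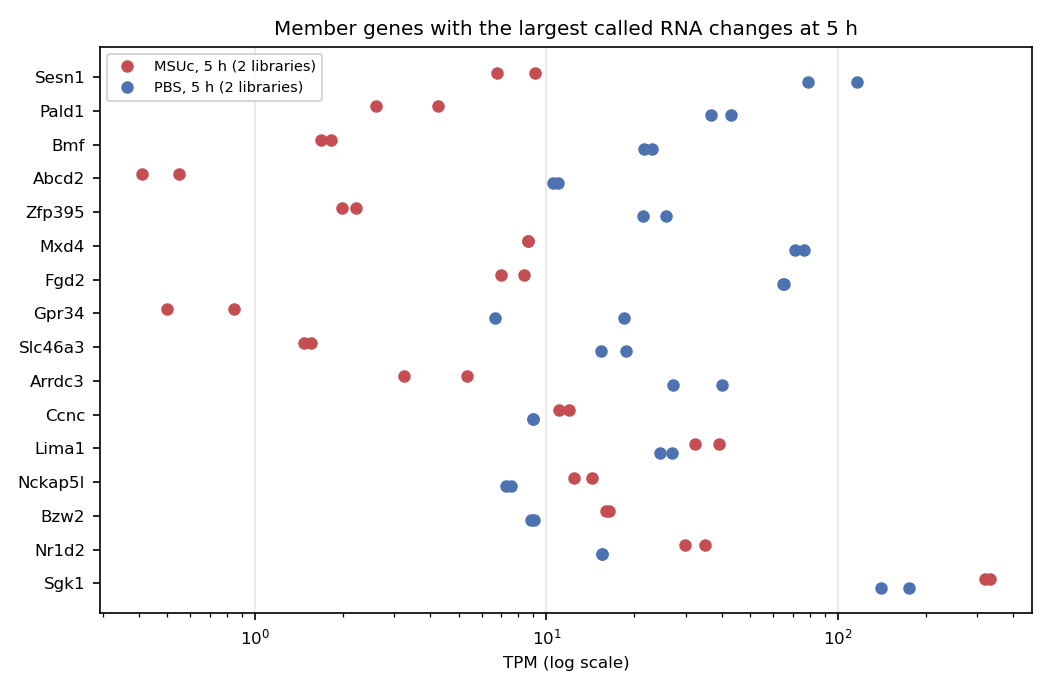
RNA level in TPM (log axis) in each 5 h library, MSUc in red above PBS in blue, for the 10 member genes with the largest called fall and the 6 that rose. Genes were taken for this plot only where the groups do not overlap. The falls reach -3.45 on the log2 scale (Sesn1) and the rises 1.05 (Sgk1).

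Most member genes of the macrophage surface and of engulfment fell. Of 10 member genes in a list of macrophage surface receptors, 8 fell and 0 rose at 5 h, while 40 of the 64 tested genes of the whole list fell and 9 rose. Clec4a1 and Clec4a3, C-type lectins of myeloid cells, fell by 1.75 and 1.74 on the log2 scale. Itgam, the alpha chain of the complement receptor CR3, had 195 and 212 TPM in MSUc libraries, against 331 and 364 TPM in PBS libraries (-0.77 ± 0.10, limma adjusted p = 4.30e-05). P2ry12, a receptor for ADP, fell by 1.57. The 2 without a call were Cx3cr1, the fractalkine receptor, with 23.0 and 5.75 TPM in MSUc libraries, against 39.5 and 154 TPM in PBS libraries (limma adjusted p = 9.30e-02), and Fcgr1, a high-affinity receptor for IgG, with 37.9 and 105 TPM in MSUc libraries, against 214 and 118 TPM in PBS libraries (limma adjusted p = 0.101). The libraries of each group differed widely in both, with MSUc replicate 1 and PBS replicate 2 the high ones of Cx3cr1 and the low ones of Fcgr1. With high set against high and low against low, MSUc was below PBS in both, but the labels do not state such pairs. Here too the pairs were drawn from the values compared, so no fall is shown by them. Both names come from outside the naming rule, chosen after their values were seen. All 3 members of the efferocytosis list fell. Mertk, the kinase receptor through which macrophages engulf dying cells, had 5.61 and 8.58 TPM in MSUc libraries, against 36.5 and 34.8 TPM in PBS libraries (-2.20 ± 0.21, limma adjusted p = 3.67e-06). Its MSUc libraries were far below its PBS libraries. Apoe had 2352 and 2565 TPM in MSUc libraries, against 4712 and 4564 TPM in PBS libraries (-0.92 ± 0.13), and Itgb5, which pairs with integrin alpha V, fell by 1.64. In the whole efferocytosis list 13 of 27 fell and 2 rose.

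The C1q genes fell as well, as 3 of the 4 complement genes that fell among 9 tested. C1qa had 765 and 1122 TPM in MSUc libraries, against 2042 and 1521 TPM in PBS libraries (-0.93 ± 0.27, limma adjusted p = 1.16e-02). C1qb and C1qc fell by 0.69 and 0.71. These falls were smaller than the loss of H3K4me3 at C1qb and C1qc on the same log2 scale. Of 3 macrophage transcription factors among the members, Mef2c had 5.93 and 4.48 TPM in MSUc libraries, against 20.6 and 28.6 TPM in PBS libraries (-2.04 ± 0.27, limma adjusted p = 4.28e-05), Klf2 fell by 0.57, and Nr1d2 was the one that rose. In that whole list of 31, 13 fell and 6 rose. Unc93b1, which carries nucleic acid-sensing Toll-like receptors to endolysosomes, fell by 0.97 and was the only member in the list of innate signalling genes. Tlr7, one of these receptors, was also a member but was counted in the list of macrophage surface receptors. No MHC class II gene, interferon-stimulated gene, V-ATPase subunit or inflammatory gene of the lists had a member window, and of the 26 tested inflammatory genes 23 rose and 0 fell.

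The 3 lysosomal members fell, while the lysosomal list as a whole had 18 of 51 that fell and 9 that rose. Man2b1 had 244 and 257 TPM in MSUc libraries, against 429 and 439 TPM in PBS libraries (-0.79 ± 0.08, limma adjusted p = 8.34e-06). Lgmn, an asparaginyl endopeptidase, and Gm2a, the activator protein for GM2 ganglioside breakdown, fell by 0.63 and 0.48. The libraries of Man2b1 did not overlap. All 4 members of the nutrient and energy list fell. Besides Sesn1 and Txnip these were Ulk2, a kinase that starts autophagy, which fell by 1.79, and Prkag1, a regulatory subunit of AMPK, which fell by 1.11. In the whole list of 41, 19 fell and 11 rose. Bad, a BH3-only relative of Bmf, had 17.2 and 14.7 TPM in MSUc libraries, against 27.5 and 29.1 TPM in PBS libraries (-0.79 ± 0.11, limma adjusted p = 8.11e-05). In the BCL2 family as a whole, 3 of 15 fell and 7 rose.

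Zinc finger genes fell in 10 of 12 members, as in 148 of 371 of the family, of which 36 rose. Chromatin genes fell in 4 of 5 members (32 of 65 in the list, with 12 that rose), among them Sirt3, a mitochondrial deacetylase, by 1.24, Brd3, a bromodomain reader of acetylated histones, by 0.82, and Kat8, the acetyltransferase of H4 lysine 16, by 0.71. Respiratory chain genes fell in 3 of 3 members and in 45 of 89 of the list, in which 0 rose. DNA repair genes fell in 2 of 3 members (30 of 54, with 4 that rose), namely Mbd4 by 1.50 and Ogg1, both glycosylases of base excision repair, by 0.56. Smaller groups gave 2 of 2 for Rab and traffic genes (75 of 172 in the list, with 41 that rose), 4 of 5 for solute carriers (78 of 198, with 43) and 4 of 6 for ubiquitin ligases (80 of 221, with 41). They gave 2 of 4 for the kinesin and dynein list (13 of 39, with 4) and 1 of 2 for the mitochondrial ribosome (31 of 76, with 3). The 4 of the kinesin and dynein list were Kif1bp, Kif9, Kif18a and Kif3b. The member genes Dynlt1a, Dynlt1b, Dynlt1f and Dnal4 were not counted in it.

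Some mitotic member genes had no call at 5 h in the time course. Ccnb2, cyclin B2, had 30.2 and 5.18 TPM in MSUc libraries, against 11.0 and 50.5 TPM in PBS libraries (limma adjusted p = 0.665). Aspm, with the third largest loss of H3K27ac, had 4.41 and 0.68 TPM in MSUc libraries, against 1.59 and 7.41 TPM in PBS libraries (limma adjusted p = 0.648). In both genes MSUc replicate 1 and PBS replicate 2 were the high libraries. Set high against high and low against low, MSUc was below PBS in both genes, but the labels do not state such pairs. The pairs were drawn from the values compared, so this is a description and no test of a fall. The 57 cell cycle genes listed summed to 1307 and 1046 TPM in MSUc libraries and 941 and 1360 TPM in PBS libraries, with replicate 1 higher than replicate 2 in MSUc and lower in PBS. Of the 4 members in that list, Ccng2 and E2f2 fell by 0.98 and 1.35. In the whole list 8 of 57 fell and 5 rose. With MSUc across the 8 experiments, the 5 h time point among them, Aspm and Ccnb2 each fell in 3 and rose in 0. Their log2 changes ran from -1.99 to -0.28 and from -1.75 to -0.09. Bub1b, another member of that list, fell in 6 and rose in 0.

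Of the 12 windows with the largest loss, RNA fell at 5 h for Pde3b, Man2b1, Pltp and Dcp1b. Pde3b had 3.64 and 4.58 TPM in MSUc libraries, against 24.6 and 25.1 TPM in PBS libraries (-2.34 ± 0.12, limma adjusted p = 1.74e-08). Pltp had 883 and 1040 TPM in MSUc libraries, against 1470 and 1432 TPM in PBS libraries (-0.60 ± 0.13, limma adjusted p = 1.71e-03). Pak1 had 24.4 and 22.2 TPM in MSUc libraries, against 28.4 and 31.6 TPM in PBS libraries, with no call (limma adjusted p = 8.59e-02). Efhb, Cyp46a1, Ppil6, 4930563E22Rik and Cd46 had at most 0.86 TPM in any 5 h library and were not tested. Some windows hold the start of a second gene, which was so for 89 of the 517 (17.2%). For Ppil6 this was Smpd2, a neutral sphingomyelinase, with means of 5.70 TPM in MSUc libraries and 12.3 TPM in PBS libraries (-1.01 ± 0.19, limma adjusted p = 6.54e-04). For 4930563E22Rik it was Med31, with means of 4.04 TPM in MSUc libraries and 3.504 TPM in PBS libraries and no call (limma adjusted p = 0.768). Of 35 such second genes that were tested and had no window of their own, 16 fell and 1 rose, with a median of -0.54. Among all genes tested at 5 h, 32.9% fell and 16.4% rose, with a median of -0.23. The difference was not tested.

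The genes were split by other features, and the splits are given as descriptions. Of the 113 tested genes whose window also overlapped the reduced H3K4me3 list, 96 fell at 5 h (85.0%) with a median of -1.19. Of the 295 others, 189 fell (64.1%) with a median of -0.69. The first set also had more RNA in PBS cells, with a median of 54.6 TPM, against 16.5 TPM in the others. Its part in the difference was not tested. Genes with another region of reduced H3K27ac outside the promoter fell in 128 of 162 cases (79.01%, median -0.99), and those without in 157 of 246 (63.8%, median -0.70). By size of the H3K27ac loss, the measure that chose the windows, 75 of 101 genes fell in the quartile with the largest loss (74.3%, median -0.90) and 62 of 102 in the quartile with the smallest (60.8%, median -0.65). Genes that had only non-promoter regions of reduced H3K27ac fell in 262 of 513 cases (51.1%, median -0.54), and 57 rose. Genes of the promoters that gained H3K27ac fell in 2 of 67 cases and rose in 54 (80.6%), with a median of 1.64.

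**Figure D5:**
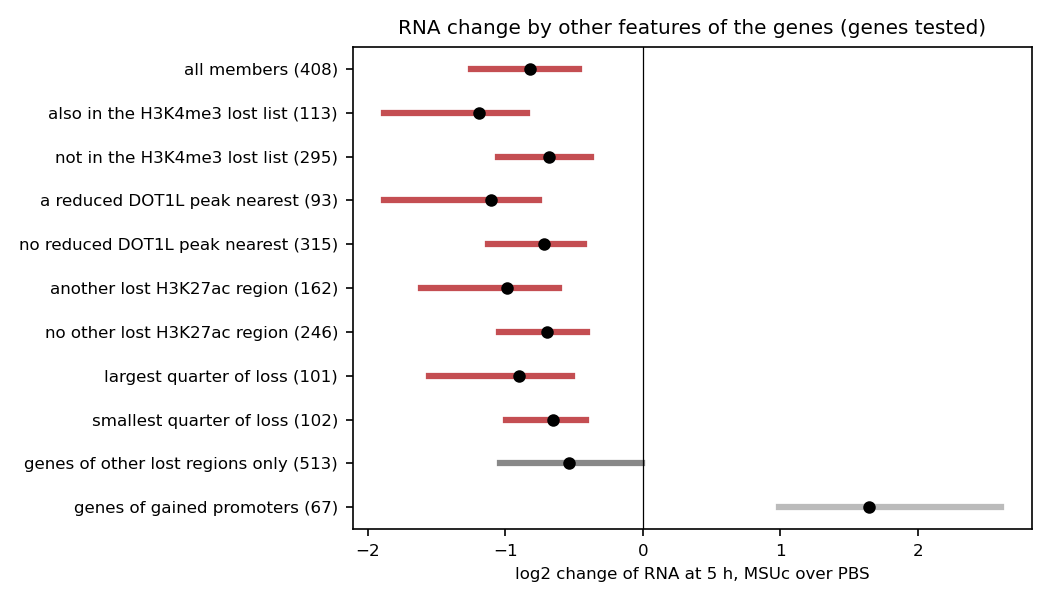
Median (point) and quartiles (bar) of the log2 change of RNA at 5 h, MSUc over PBS, for the tested genes of each set, with the number of genes in brackets; red bars are member genes and grey bars other genes. Medians of the member sets lie between -1.19 and -0.65, that of genes with only non-promoter losses at -0.54, and that of genes of gained promoters at 1.64.

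In 7 further experiments with their own PBS libraries, far more member genes fell than rose. In the particle experiment 325 of 394 tested member genes fell with MSUc, against 44.9% of all genes, and 9 rose, against 18.1%. In Tfe3WT cells 324 of 400 fell, against 41.6%, and 10 rose (6 without Tfe3WT MSUc replicate 1), against 20.0%. In TfebWT cells 277 of 398 fell, against 32.9%, and 7 rose, against 12.6%. In WT cells of the Bhlhe experiment 296 of 400 fell, against 43.4%, and 16 rose, against 17.1%. In Ampka1WT cells 326 of 403 fell, against 43.9%, and 16 rose, against 19.7%. In vehicle cells of the DOT1L inhibitor experiment 297 of 396 fell, against 37.7%, and 17 rose, against 17.8%. In vehicle cells of the metformin experiment 266 of 400 fell, against 34.3%, and 15 rose, against 19.6%. With the 5 h time point as the eighth experiment, 385 member genes were tested in all 8, of which 193 (50.1%) fell in every one, against 16.8% of all genes. Nr1d2 and Sgk1 rose in every one, which is 0.519% of the members, against 7.72% of all genes.

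Single genes varied across the 8 experiments to different degrees. Bmf fell in all 8, with log2 changes from -3.68 to -2.56, and Sesn1 fell in all 8, from -3.49 to -2.10. Abcd2 ran from -3.13 to -2.28 and C1qa from -1.93 to -0.70, both with a fall in all 8. Mertk also fell in all 8 but over a wide range, from -2.97 to -0.34. Apoe fell in 7. Nr1d2 ran from 0.50 to 1.27 and Sgk1 from 0.74 to 1.53. Pak1 fell in 3 and rose in 3, from -0.76 to 0.68, so that its direction differed by experiment. Lima1 rose in 7 and fell in 0. Of the other genes that rose at 5 h, Bzw2 rose in 4 and fell in 0, and Ccnc rose in 1 and fell in 0. Nckap5l rose in 3 and fell in 2.

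Other particles were set against the same PBS libraries as MSUc, so their results share those libraries. With CPPD 300 of 394 member genes fell, against 35.8% of all genes, and 11 rose, against 16.6%. With silica (2 libraries) 292 fell, against 43.9%, and 22 rose, against 24.4%. With alum (2 libraries) 173 fell, against 19.2%, and 33 rose, against 27.1%. Median log2 changes were -0.72 with CPPD, -0.96 with silica and -0.33 with alum, against -0.20, -0.25 and 0.08 for all genes. With libraries rescaled by a median of ratios, silica gave 238 member genes that fell and 55 that rose, where 3882 of 12267 genes fell and 4393 rose. Alum gave 205 and 23 after that scaling, where 2857 of all genes fell and 2687 rose. Header and labels disagree here: 3 columns are named silica and 2 alum, but the reverse numbers of samples are labelled so, and one of these columns may be misnamed. The 33 that rose with alum were 19, 14 and 21 without alum replicate 1, alum replicate 2 or PBS replicate 2, and the 11 that rose with CPPD were 7 without CPPD replicate 1. Bmf had 1.79, 1.76 and 2.63 TPM with CPPD, 1.01 and 0.68 with silica and 3.83 and 3.27 with alum, against 16.7, 16.0 and 19.5 TPM in PBS libraries. Sgk1 had 303, 334 and 291 TPM with CPPD, 188 and 153 with silica and 193 and 217 with alum, against 96.6, 94.8 and 102 TPM in PBS libraries. Apoe had 6404, 6397 and 4926 TPM with CPPD, 2812 and 2021 with silica and 5436 and 3915 with alum, against 10593, 9560 and 7374 TPM in PBS libraries. Bmf and Apoe were thus lower and Sgk1 higher with each particle, with every library on its own side of the PBS libraries.

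Genotypes and drugs were compared in cells that all received MSUc. The gene named by the label was checked first. Bhlhe40 was at 10.7 to 17.1 TPM in B40KO and 287 to 313 TPM in WT libraries, Bhlhe41 at 49.5 to 50.3 TPM in B41KO and 90.1 to 94.9 TPM in WT libraries, and Tfeb at 201 to 299 TPM in TfebTg and 25.5 to 30.7 TPM in TfebWT libraries. With MSUc, Tfe3 was not lower in the libraries labelled Tfe3KO (84.9 to 87.3 TPM, against 79.7 to 83.3 TPM in Tfe3WT). It was lower under that label with PBS (66.7 to 70.0 TPM, against 94.2 to 104 TPM in Tfe3WT), with CPPD (85.4 to 97.7 TPM, against 98.4 to 108 TPM in Tfe3WT) and with silica (31.1 to 43.2 TPM, against 52.3 to 57.8 TPM in Tfe3WT). Prkaa1, the gene of AMPK alpha 1, was not lower with MSUc in the libraries labelled Ampka1KO (26.5 to 31.0 TPM, against 21.2 to 23.3 TPM in Ampka1WT). Whether a deleted part of these transcripts would show in the gene total is not given in the sources used here.

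In the libraries labelled Tfe3KO 39 of 400 member genes changed (14 lower, 25 higher), against 10.7% of all genes, and in TfebTg libraries 17 of 398 changed (9 lower, 8 higher), against 3.48%. In B40KO libraries 0 of 400 changed by limma (7 lower and 18 higher at an unadjusted p under 0.05), against 0.0165%. In B41KO libraries 13 of 400 changed (3 lower, 10 higher), against 1.33%. Single libraries bore on these counts. The 39 were 23 without Tfe3KO replicate 2, the 17 were 10, 11 and 10 without TfebTg replicate 3, TfebWT replicate 1 or TfebWT replicate 3, and the 13 were 2, 0 and 3 without B41KO replicate 1, B41KO replicate 2 or WT replicate 1. C1qa was at 84.4 ± 3.4 TPM in TfebTg and 138 ± 11 TPM in TfebWT libraries (SD, n = 3 each; -0.70 on the log2 scale, limma adjusted p = 0.0006). Sesn1 was at 11.8 ± 2.3 TPM in TfebTg and 6.54 ± 1.2 TPM in TfebWT libraries (0.76, limma adjusted p = 0.0178). Sgk1 was at 292 ± 17 TPM in TfebTg and 195 ± 8.6 TPM in TfebWT libraries (0.58), and at 171 ± 28 TPM in the libraries labelled Tfe3KO and 244 ± 2.6 TPM in Tfe3WT libraries (-0.52, limma adjusted p = 0.00279). Sgk1 was thus higher with the Tfeb transgene and lower under the Tfe3KO label.

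The Ampka1KO label and the drugs came with change across the whole table. In the libraries labelled Ampka1KO 268 of 403 changed (100 lower, 168 higher), against 71.8% of all genes, and a median-of-ratios scaling turned the split to 169 lower and 92 higher, as it turned that of all genes to 4691 lower and 3995 higher, against 2590 and 6622 before. With metformin 203 of 400 changed (75 lower, 128 higher), against 43.6%, and after that scaling 100 were lower and 77 higher, with 2712 and 2460 among all genes. With SGC0946 63 of 396 changed (35 lower, 28 higher), against 16.6%, and after that scaling 25 were lower and 33 higher, with 910 and 1075 among all genes. Apoe was at 2501 ± 268 TPM with SGC0946 and 1139 ± 55 TPM with vehicle (1.13, limma adjusted p = 0.00027), at 1347 ± 48 TPM with metformin and 2421 ± 482 TPM with vehicle (-0.83, limma adjusted p = 0.000365), and at 333 ± 259 TPM in the libraries labelled Ampka1KO and 4764 ± 862 TPM in Ampka1WT libraries (-4.11, limma adjusted p = 8.2e-06), all SD with n = 3. C1qa was likewise called higher with SGC0946 (0.33) and lower with metformin (-0.97) and under the Ampka1KO label (-1.88). The SGC0946 count of 63 was 38 and 33 without SGC0946 replicate 1 or 3.

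DOT1L methylates lysine 79 of histone H3 in transcribed genes, and TFEB and TFE3 are factors that drive lysosomal genes. The deposited peaks of these proteins all lie at least 3001 bp from a start site, so that none of the 517 windows overlapped one, and a peak could only be assigned to its nearest gene. Of the 438 member genes, 95 (21.7%) were nearest to a reduced DOT1L peak, holding 177 (4.21%) of those peaks, and 51 (11.6%) were nearest to a gained one, holding 81 (1.70%). Marcks, an actin-binding substrate of protein kinase C, had 8 reduced DOT1L peaks, Zswim6 had 7 and Selenop, which encodes selenoprotein P, had 6. Gained TFE3 peaks were nearest to 64 member genes (14.6%) and gained TFEB peaks to 57 (13.0%). Of the genes of the 84 promoters that gained H3K27ac, 13 (17.6%) were nearest to a reduced DOT1L peak, a share near that of the members. Gained peaks were nearest to larger shares of them, 36 (48.6%) for DOT1L, 34 (45.9%) for TFE3 and 43 (58.1%) for TFEB. Shares over all genes are not given here, so these values do not show what sets the members apart from other genes. Of the member genes near a reduced DOT1L peak, 72 of 93 tested fell at 5 h (77.4%, median -1.11), and of those without, 213 of 315 (67.6%, median -0.72). Other regions of reduced H3K27ac lay nearest to 169 member genes (38.6%), most to Grk2 (9), a kinase that desensitises G protein-coupled receptors, and Fam105a (8), and gained regions to 12 (2.74%).

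The GC and CpG content of the promoters was close to that of other expressed genes, while the shares with some motif letters differed. RefSeq promoters were matched to 417 windows of 346 genes, giving 364 distinct stretches of 300 bases. Their median GC content was 60.8%, against 60.7% in the 11821 promoters of genes tested at 5 h and 55.3% in 62 promoters that gained H3K27ac. The ratio of observed to expected CpG was over 0.6 in 72.8% of member promoters, 69.3% of those of tested genes and 41.9% of those that gained H3K27ac. Motif letters were searched on both strands. CACGTG stood in 4.67% of member promoters, 10.3% of promoters of tested genes, 17.7% of gained ones and 7.15% of all 32851 in the table. The longer GTCACGTG, part of the CLEAR element of lysosomal genes that holds CACGTG, stood in 1.65%, 4.26%, 12.9% and 2.25% in the same order, and TGANTCA, the AP-1 letters, in 2.75%, 5.28%, 16.1% and 7.81%. Some other letters were more frequent in the members. CCAAT stood in 44.8% of member promoters, 37.9% of promoters of tested genes, 25.8% of gained ones and 37.4% of all. GGGCGG stood in 67.6%, 62.2%, 54.8% and 35.7% in the same order. GAGGAAGT, the letters of the macrophage factor PU.1, stood in 6.32% (23 of 364), 3.38%, 4.84% and 3.20%. CCGGAAGT, the letters of GABP, went the other way against tested genes, with 6.59%, 8.42%, 0% and 3.89%. Further letters were searched and are not listed here. These shares describe letters in a fixed window and carry no test.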

How the data were processed

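Chromatin was read by ChIP-seq and RNA by sequencing of poly-A RNA, per the labels' protocols, and STAR, HOMER and mm10 are named in the submitters' processing notes without versions. The 8 deposited RNA tables are headed with no unit, and their values behave as TPM, summing to 528079 to 569594 per library over the listed genes. The deposited region lists hold a tag signal, counted by the authors in 2000 bp windows and scaled between libraries, per the file headers. They also hold the authors' log2 change, p-value and adjusted p-value. Their header names PBS before MSU, and negative changes go with lower tags in MSUc. Dividing by the smallest step gave whole tags for 100% of values (tolerance 0.1 tag), with medians over the member windows of 100 tags summed over MSUc and 528 over PBS libraries, so small windows carry more counting error. The lists of DOT1L, TFE3 and TFEB peaks were used for their nearest gene. The 10 columns of libraries that could not be matched to a listed sample or treatment used here were left out.

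The member windows and gene lists were chosen with earlier results of these data known. Named are the 12 windows with the largest listed loss, the 3 nearest the threshold, the 10 largest called falls and up to 6 called rises of RNA at 5 h (mean of at least 5 TPM and no overlap), up to 4 members of each gene list by smallest p, up to 5 by H3K4me3 change, and the BCL2 and mTORC1 genes. H3K27ac was described without a test. RNA was tested with limma 3.58.1 (R 4.3.3, trend) on log2(TPM + 1), which understates the change of low genes, 1 fit per experiment over all its groups. Genes entered the test with at least 1 TPM in a number of libraries equal to the size of the smallest group. Tests are two-sided, with Benjamini-Hochberg adjustment over all genes tested and a call under 0.05. Errors are SE from limma. The script was tested on simulated data for the 5 h comparison. It called 78 of 100 genes changed by 1 log2 unit and 29 of 100 changed by 0.5, with 12 false calls. Genes without a call may thus have changed. The result of 1 gene list is not reported here. All 438 genes were matched by symbol. Genes with near copies, such as histones, are uncertain, since how shared reads were divided is not given in the sources used here. Samples were grouped by title; 12 samples titled Tfe3WT carry a Tfe3KO genotype field and replicate 3 of TfebWT with MSUc carries a PBS treatment field. In the particle table silica 1 and 2 and alum 1 and 2 were used, and silica 3 was left out, as the labels list 2 silica samples. Alternatives covered the pseudocount, the filter, the scaling, the groups in the fit, stricter windows, the replicate block and leaving out each library. In the time course, same-numbered MSUc and PBS libraries did not deviate together at every time (correlation of deviations 0.48 at 10 min and -0.55 to -0.42 at the later times), so the numbers were not taken to pair samples. At the later times libraries of opposite number deviated together instead. The main fits did not model this, so differences that such libraries share stay in the error of the tests.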

Additional observations from a re-analysis of the deposited data

Results flagged for a closer look

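Zfp36l1 differed in its MSUc effect between times of the same experiment: it rose at 1 h and fell at 5 h, and the difference between the log2 changes was -2.89 ± 0.25 SE (limma adjusted p = 1.31e-05). Both MSUc libraries lay above both PBS libraries at 1 h and below them at 5 h.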

How the results depend on the processing

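The median H3K27ac log2 change of the windows (-1.18) was -1.09 with 8 tags added, -1.64 in windows with an authors' change of -1.5 or lower and, chosen after seeing the data, -1.34 with scaling to library totals; leaving out a library gave -1.28 to -1.15. Of the time course counts, a fit of only the 2 compared groups gave 0 that rose at 30 min, 1 that fell and 1 that rose at 1 h, and 111 that fell at 2 h. Windows of -1.5 or lower gave 1 that rose at 30 min, 3 that fell and 2 that rose at 1 h, 49 and 1 at 2 h, and 71 and 2 at 5 h, from fewer genes. Median-of-ratios scaling moved the median of all genes by 0.28 with MSUc in the particle experiment, and the numbers of member genes that rose became 8 (2 h), 19 (5 h), 21 (particle experiment), 22 (Tfe3WT), 16 (TfebWT), 38 (WT of the Bhlhe experiment), 33 (Ampka1WT), 32 (DOT1L inhibitor vehicle), 24 (metformin vehicle), 27 (CPPD) and 55 (silica). Why they moved was not tested.

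With a replicate block, 285 fell and 7 rose at 5 h, 197 and 4 at 2 h and 14 and 4 at 1 h, and no count moved by over 1.5 times; the block with MSUc numbers crossed, chosen after seeing the data, gave 313 and 8 at 5 h, 246 and 6 at 2 h, 21 and 5 at 1 h, and 1 that rose at 10 min. Leaving out 1 library gave ranges of 1 to 1 that rose at 30 min, 4 to 6 that fell and 2 to 3 that rose at 1 h, 145 to 158 that fell at 2 h and 247 to 261 at 5 h. It gave 6 to 10 that rose in Tfe3WT, 7 to 11 with CPPD and 14 to 32 with alum, and changed counts of 23 to 31 (Tfe3KO), 10 to 18 (TfebTg), 0 to 13 (B41KO) and 33 to 69 (SGC0946). The difference of the MSUc effect between 5 h and 1 h was also chosen after seeing the data. With a stricter overlap (at least 1000 bp), 138 windows were in the reduced H3K4me3 list and 0 in the gained one.

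Of 879 repeats for 80 named genes at 5 h, 805 kept direction and side of the threshold, 60 lost the call (17 genes), 5 gained it and 9 turned sign (5 genes without a call). These were Aspm (0.21 and 0.22 without MSUc or PBS replicate 2), Ccnb2 (0.33 and 0.21 likewise, and as low as -2.01 without MSUc replicate 1), Kif18a (0.33 and 0.001 likewise, -0.84 without MSUc replicate 1), Gnl1 (-0.16 without MSUc replicate 1, -0.06 without PBS replicate 2) and Mrps33 (0.059 with median-of-ratios scaling). Sequence windows centred on the regions were not run, as no genome was given. Depth limits small windows, and groups of 2 or 3 libraries limit the calls.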
